A study of Mus musculus with 12 samples.

Results

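Expression of 9 genes that bind, sense or move zinc was examined in astrocytes of the mouse hippocampus. The genes are the metallothioneins Mt1, Mt2 and Mt3, the zinc sensor Mtf1, the zinc exporters Slc30a1 and Slc30a10, and the importers Slc39a1, Slc39a12 and Slc39a14. They were taken by symbol from a deposited table of 56791 gene names, and all 9 were found. All 9 also passed the filter of a mean of at least 1 FPKM (fragments per kilobase per 1000000 fragments) over the libraries, which left 17540 genes to test. The series concerns astroglial TNFR2 and synapses of the hippocampus, and the genotype comparison asks how these genes differ between its groups. Sorted astrocytes came from naive adult males, and their mRNA was sequenced in 12 libraries. The 6 libraries labelled Ctrl, A1, A2 and A8, came from Tnfrsf1bfl/fl mice, in which the gene of the tumour necrosis factor receptor TNFR2 is flanked by loxP sites and no Cre is present. The 6 libraries labelled cKO, A4, A9 and A10, came from GfapcreERT2:Tnfrsf1bfl/fl mice. These carry the same floxed gene together with a Cre recombinase that tamoxifen activates, driven by the Gfap promoter, which is active in astrocytes and in the stem cells of the hippocampus. The labels give neither the dose nor the time of tamoxifen, nor whether animals were pooled. Each A number has an S1 and an S2 library, and the labels define neither letter. S1 and S2 were averaged into 1 unit per A number, so n is 3 units per genotype throughout. Because nothing says that the units are separate animals, p-values measure only the spread between these samples.

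Metallothioneins are small proteins rich in cysteine that bind zinc and copper in the cell. MTF1 is a transcription factor with zinc fingers that binds metal response elements when zinc rises in the cell. Mt1, Mt2 and Slc30a1 are among its best known targets. Transporters of the ZnT family (Slc30a genes) move zinc out of the cytosol, into vesicles or out of the cell, and transporters of the ZIP family (Slc39a genes) move it into the cytosol. In the brain, Mt1 and Mt2 are made mostly by astrocytes, Mt3 is the form enriched in the nervous system, and zinc is also stored in the synaptic vesicles of many hippocampal glutamatergic neurons.

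Promoter sequences are shown for the 3 metallothionein genes and for Slc30a1, the exporter gene named above as a target of MTF1. They are the 250 bases before the first RefSeq start of each gene on GRCm38.p6, 5′ to 3′ on the gene's own strand, in lower case. Capitals mark matches on either strand to the core of the metal response element, searched as TGCACNC and TGCGCNC. Matches that overlap are counted separately.
Mt1, chr8:94178839-94179088, plus strand: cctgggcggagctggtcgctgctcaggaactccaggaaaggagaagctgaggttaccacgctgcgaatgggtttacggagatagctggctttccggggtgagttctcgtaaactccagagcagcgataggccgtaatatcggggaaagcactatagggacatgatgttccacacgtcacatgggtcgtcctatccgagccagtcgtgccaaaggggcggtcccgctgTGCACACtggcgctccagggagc
Mt2, chr8:94172368-94172617, plus strand: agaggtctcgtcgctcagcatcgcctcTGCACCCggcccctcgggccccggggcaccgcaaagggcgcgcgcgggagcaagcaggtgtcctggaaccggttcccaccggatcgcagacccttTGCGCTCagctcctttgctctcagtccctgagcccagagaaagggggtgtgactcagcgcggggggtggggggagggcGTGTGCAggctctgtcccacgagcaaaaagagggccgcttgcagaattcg
Mt3, chr8:94152357-94152606, plus strand: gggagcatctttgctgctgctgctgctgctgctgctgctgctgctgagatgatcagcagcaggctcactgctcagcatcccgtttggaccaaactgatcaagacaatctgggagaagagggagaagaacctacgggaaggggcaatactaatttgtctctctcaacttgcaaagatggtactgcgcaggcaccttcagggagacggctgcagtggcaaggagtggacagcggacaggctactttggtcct
Slc30a1, chr1:191906531-191906780, plus strand: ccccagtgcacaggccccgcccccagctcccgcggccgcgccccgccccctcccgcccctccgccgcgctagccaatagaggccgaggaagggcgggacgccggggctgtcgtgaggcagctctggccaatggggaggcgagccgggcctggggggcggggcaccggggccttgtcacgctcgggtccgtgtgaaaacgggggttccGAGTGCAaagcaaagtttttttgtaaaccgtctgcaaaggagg
In these stretches Mt2 held 3 matches, Mt1 and Slc30a1 held 1 each, and Mt3 held 0. Elements beyond the searched windows, on either side of the first RefSeq start, are not counted, so these numbers are not totals for a gene.

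The search was also run on the whole RefSeq window of 300 bases, which adds 50 bases after the start. Of the 9 genes, 8 had a promoter in the table, all but Slc39a14, and 5 of these 8 held at least 1 match. Mt2 held 4 matches, beginning at -223, -128, -50 and 5, counted from the start with -1 as the base before it. Mt1 held 3, at -23, 3 and 21. Slc30a10 held 3, at -233, -232 and -73, of which the first 2 overlap on opposite strands. Slc30a1 held 2, at -43 and 31, and Mt3 held 1, at 28. Mtf1, Slc39a1 and Slc39a12 held 0 in this window. Of 20 other metallothionein, ZnT and ZIP genes, 17 had a promoter and 10 of these held at least 1 match at any listed start. Some of them have 2 listed starts, and Slc39a8 held its match only at start 2. The shares given next are per promoter, which is not the same measure. Among all 32851 RefSeq promoters of the same length, 25.7% held at least 1 match, 7.11% at least 2, 1.97% at least 3 and 0.517% at least 4. Over the 250 bases before the start alone, the median GC content was 63.6% in the 8 promoters and 52.4% in all. A match describes these letters only, and no binding was measured.

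**Figure D1:**
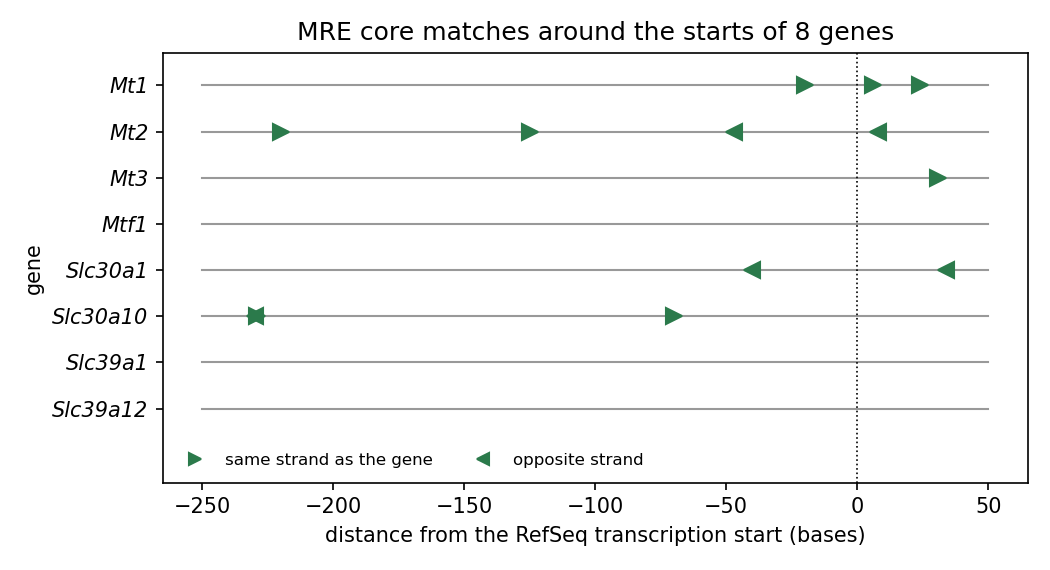
Positions of matches to the metal response element core (horizontal axis, bases from the RefSeq start) in the 300-base windows of the 8 genes with a RefSeq promoter (vertical axis), by strand. Mt2 has 4 marks and Mt1 and Slc30a10 have 3 each (the leftmost 2 of Slc30a10 overlap), while the rows of Mtf1, Slc39a1 and Slc39a12 are empty.

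Depth, worked out from the smallest steps of the FPKM values, was 17311908 to 22026089 reads for S1 and 28096430 to 35323273 reads for S2. Tnfrsf1b (ENSMUSG00000028599, chromosome 4, 144940033 to 144973440), the floxed gene, was listed at 0 in 9 of 12 libraries. It had 4 reads in the S1 library of Ctrl A1, and 10 and 22 reads in the S1 and S2 libraries of A4, which is labelled cKO. The highest counts were thus in a unit labelled cKO. With 0 in most libraries of both labels, Tnfrsf1b cannot check the labels, so Ctrl and cKO below mean only how the libraries are labelled. Astrocyte markers were abundant: 10 listed genes together reached 3689 to 4596 FPKM in the Ctrl units and 4455 to 5122 in the cKO units, and all 10 had higher means in cKO. Myelinating oligodendrocyte markers (10 genes) together reached 1049 to 2273 FPKM in the Ctrl units and 302 to 720 in the cKO units. All 10 had lower means in cKO, each at an unadjusted limma p under 0.05 (4.71% of all genes tested). Of all 17540 tested genes, 8622 had higher and 8918 lower means in cKO. No marker of these 2 lists had a limma adjusted p under 0.05 (smallest 0.693 for astrocyte and 0.320 for oligodendrocyte markers). In sorted bulk samples, fewer cells of a type and less RNA per cell cannot be told apart. Microglial markers (7 genes) summed to 14.2 to 19.1 FPKM in Ctrl and 20.7 to 36.4 in cKO, and neuronal markers (8 genes) to 8.23 to 9.67 and 3.77 to 7.98. The mean of log2(FPKM + 1) of the microglial markers was 2.02 in A4 and 0.93 to 1.28 in the other units. The part of microglia in the Tnfrsf1b reads of A4 was not tested. Other cell types varied more between units: choroid plexus markers (4 genes) summed to 7.90 to 70.7 FPKM in Ctrl and 1.62 to 449.5 in cKO. Ependymal markers (5 genes) summed to 59.7 to 229 and 50.8 to 149 FPKM, and endothelial markers (6 genes) to 4.35 to 51.3 in Ctrl and 4.48 to 35.0 in cKO.

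The metallothioneins were among the most abundant transcripts of these cells. Mt1 (ENSMUSG00000031765, chromosome 8, 94905710 to 94906955, plus strand) ranked 41 of all gene names by mean FPKM in Ctrl. Its level was 540 FPKM in A1, 641 in A2 and 785 in A8 of the Ctrl units, and 703 in A4, 705 in A9 and 673 in A10 of the cKO units. The lowest and the highest of the 6 units were thus both Ctrl, with all 3 cKO units between them. Ctrl averaged 655 ± 123 FPKM and cKO 694 ± 18.0 (SD, n = 3 each). On the scale of log2(FPKM + 1), the difference of cKO from Ctrl was 0.10 (SE 0.16, limma adjusted p = 0.945), with a 95% interval of -0.27 to 0.47.

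Mt2 (ENSMUSG00000031762, chromosome 8, 94899292 to 94900196, plus strand), the neighbour of Mt1 and like it inducible by zinc and glucocorticoids, ranked 80. It measured 195 FPKM in A1, 279 in A2 and 303 in A8 of Ctrl, and 268 in A4, 281 in A9 and 307 in A10 of cKO. A1 again lay below every other unit, and the remaining 5 units overlapped. The means were 259 ± 56.9 and 285 ± 19.6 FPKM (SD, n = 3 each), a log2 difference of 0.16 (SE 0.18, limma adjusted p = 0.911, interval -0.26 to 0.59).

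Mt3 (ENSMUSG00000031760, chromosome 8, 94879235 to 94880774, plus strand), the form also known as growth inhibitory factor, ranked 84. Its level was 211 FPKM in A1, 259 in A2 and 278 in A8 of Ctrl, against 272 in A4, 256 in A9 and 258 in A10 of cKO. As for Mt1, the cKO units fell within the range of the Ctrl units. The means were 249 ± 34.5 and 262 ± 8.72 FPKM (SD, n = 3 each), a log2 difference of 0.08 (SE 0.13, limma adjusted p = 0.944, interval -0.22 to 0.39). For all 3 genes, A1 was the lowest unit. Without A1 the log2 differences changed sign, to -0.03 for each of Mt1, Mt2 and Mt3.

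**Figure D2:**
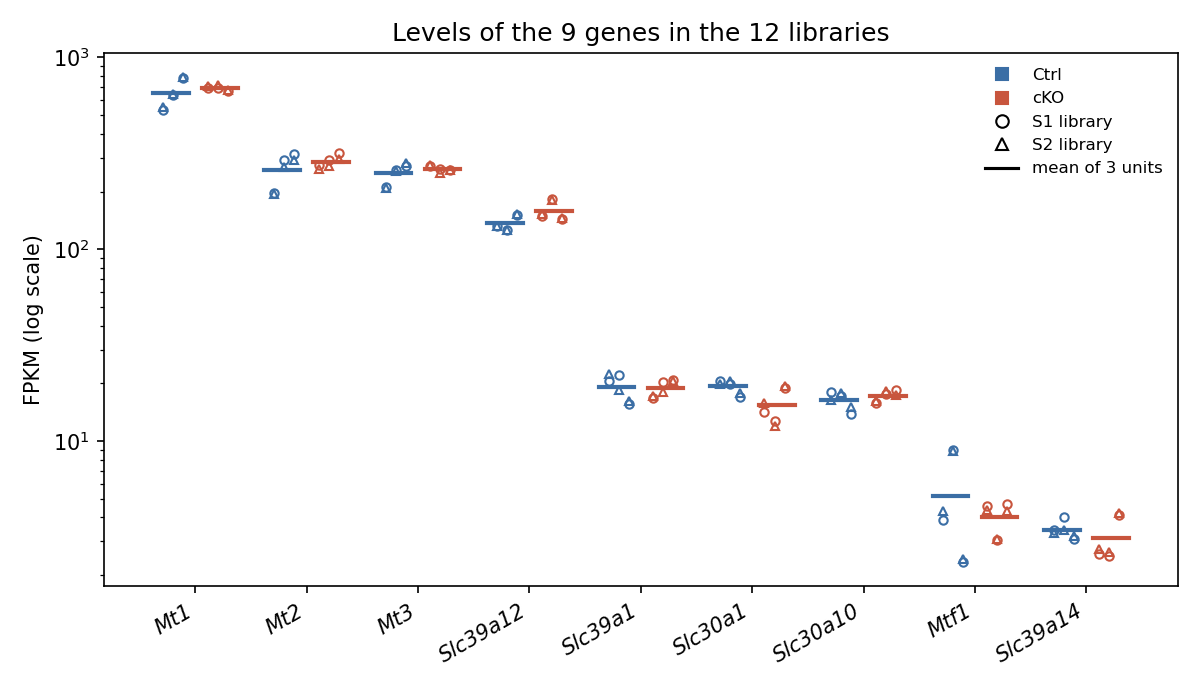
FPKM (vertical axis, log scale) of each gene in the 12 libraries, coloured by genotype, with circles for S1 and triangles for S2 and a bar at the mean of 3 units. Mt1, at 530 to 788 FPKM, lies above all other members in every library, and the Ctrl and cKO points overlap for each gene.

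The metal sensor Mtf1 (ENSMUSG00000028890, chromosome 4, 124695897 to 124743593, plus strand) was far less abundant, ranking 7871. It measured 4.11 FPKM in A1, 8.95 in A2 and 2.38 in A8 of Ctrl, and 4.49 in A4, 3.08 in A9 and 4.50 in A10 of cKO. The Ctrl units differed 3.77-fold among themselves and enclosed all 3 cKO units. S1 and S2 of A2 gave 8.99 and 8.91 FPKM, so both libraries of that unit held its high value. The means were 5.15 ± 3.41 and 4.02 ± 0.819 FPKM (SD, n = 3 each), a log2 difference of -0.16 (SE 0.39, limma adjusted p = 0.969). The interval of -1.09 to 0.77 was the widest of the 9, and without A2 the difference was 0.26.

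Among the exporters, Slc30a1 had the largest genotype difference of the 9 genes, without passing the test. Slc30a1 (ENSMUSG00000037434, chromosome 1, 191638879 to 191645359, plus strand) encodes ZnT1, which moves zinc across the plasma membrane out of the cell. It measured 20.3 FPKM in A1, 20.2 in A2 and 17.5 in A8 of Ctrl, and 15.0 in A4, 12.4 in A9 and 19.1 in A10 of cKO. A4 and A9 lay below every Ctrl unit, while A10 lay within the Ctrl range. The means were 19.3 ± 1.61 and 15.5 ± 3.41 FPKM (SD, n = 3 each), a log2 difference of -0.32 (SE 0.18, limma adjusted p = 0.764, interval -0.74 to 0.10). The difference stayed below 0 under all 20 alternative settings, from -0.47 without A10 to -0.18 without A9.

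Slc30a10 (ENSMUSG00000026614, chromosome 1, 185187045 to 185200959, plus strand) encodes ZnT10, which is known mainly as an exporter of manganese. It measured 17.2 FPKM in A1, 17.5 in A2 and 14.4 in A8 of Ctrl, and 16.0 in A4, 17.9 in A9 and 17.9 in A10 of cKO. A8 was the lowest unit and the genotypes overlapped. The means were 16.4 ± 1.69 and 17.3 ± 1.11 FPKM (SD, n = 3 each), a log2 difference of 0.08 (SE 0.13, limma adjusted p = 0.950), which was -0.01 without A8.

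Of the importers, Slc39a12 was by far the most abundant. Slc39a12 (ENSMUSG00000036949, chromosome 2, 14393127 to 14499788, plus strand) encodes ZIP12, a zinc importer found mainly in brain, and ranked 146 in Ctrl. It measured 132 FPKM in A1, 126 in A2 and 152 in A8 of Ctrl, and 151 in A4, 182 in A9 and 144 in A10 of cKO. A9 was the highest unit, whereas A4 and A10 lay within the range of Ctrl. The means were 137 ± 13.4 and 159 ± 19.9 FPKM (SD, n = 3 each), a log2 difference of 0.21 (SE 0.13, limma adjusted p = 0.808, interval -0.10 to 0.53). It stayed above 0 under all 20 alternative settings, from 0.11 without A9 to 0.31 under upper quartile scaling.

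Slc39a12 is itself expressed in astrocytes, and the 10 astrocyte markers also had higher means in cKO, as given above. Their summed levels overlapped between the genotypes. The median log2 difference of those markers was 0.21, and their part in the value of Slc39a12 was not tested.

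Slc39a1 (ENSMUSG00000052310, chromosome 3, 90155479 to 90160919, plus strand) encodes ZIP1, an importer of broad distribution. It measured 21.5 FPKM in A1, 20.2 in A2 and 15.9 in A8 of Ctrl, and 17.1 in A4, 19.1 in A9 and 20.7 in A10 of cKO, so that the Ctrl units enclosed the cKO units. The means were 19.2 ± 2.94 and 19.0 ± 1.83 FPKM (SD, n = 3 each), a log2 difference of -0.01 (SE 0.15, limma adjusted p = 0.996). Its interval of -0.38 to 0.35 held changes of either sign, and the sign turned with the scaling, being 0.09 under upper quartile scaling.

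Slc39a14 (ENSMUSG00000022094, chromosome 14, 70540918 to 70588874, minus strand) encodes ZIP14, which carries iron and manganese as well as zinc and is induced by inflammation in liver. It measured 3.39 FPKM in A1, 3.74 in A2 and 3.14 in A8 of Ctrl, and 2.66 in A4, 2.57 in A9 and 4.17 in A10 of cKO. The cKO units held both the lowest and the highest values. The means were 3.42 ± 0.301 and 3.13 ± 0.895 FPKM (SD, n = 3 each), a log2 difference of -0.12 (SE 0.22, limma adjusted p = 0.959, interval -0.63 to 0.40). It ran from -0.29 without A10 to -0.02 without A9.

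Across the 9 genes, no difference between genotypes passed the test. The background was 0.00% of the 17540 tested genes at a limma adjusted p under 0.05, so the members' count of 0 of 9 was that of the whole table. At an unadjusted p under 0.05 the members again gave 0 of 9, where the background was 7.69%, or 1349 genes. That background count moved with single units, to 2431 without A8, 923 without A4 and 865 without A9. The background was 2.98% for higher and 4.71% for lower values in cKO. The cKO and Ctrl units overlapped in all 9 genes, whereas they were fully apart in 13.0% of the genes tested (5.76% with cKO higher, 7.22% with cKO lower). The median log2 difference of the 9 was 0.08, with 5 above 0 and 4 below, and that of all tested genes was -0.01. Two-sided exact permutation tests over the 20 arrangements of the 6 units gave p values of 0.2 to 1, where 0.1 is the smallest this design allows. For 8 of the 9 genes, the 95% interval lay within 1 log2 unit of 0, and all 9 intervals held 0.

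**Figure D3:**
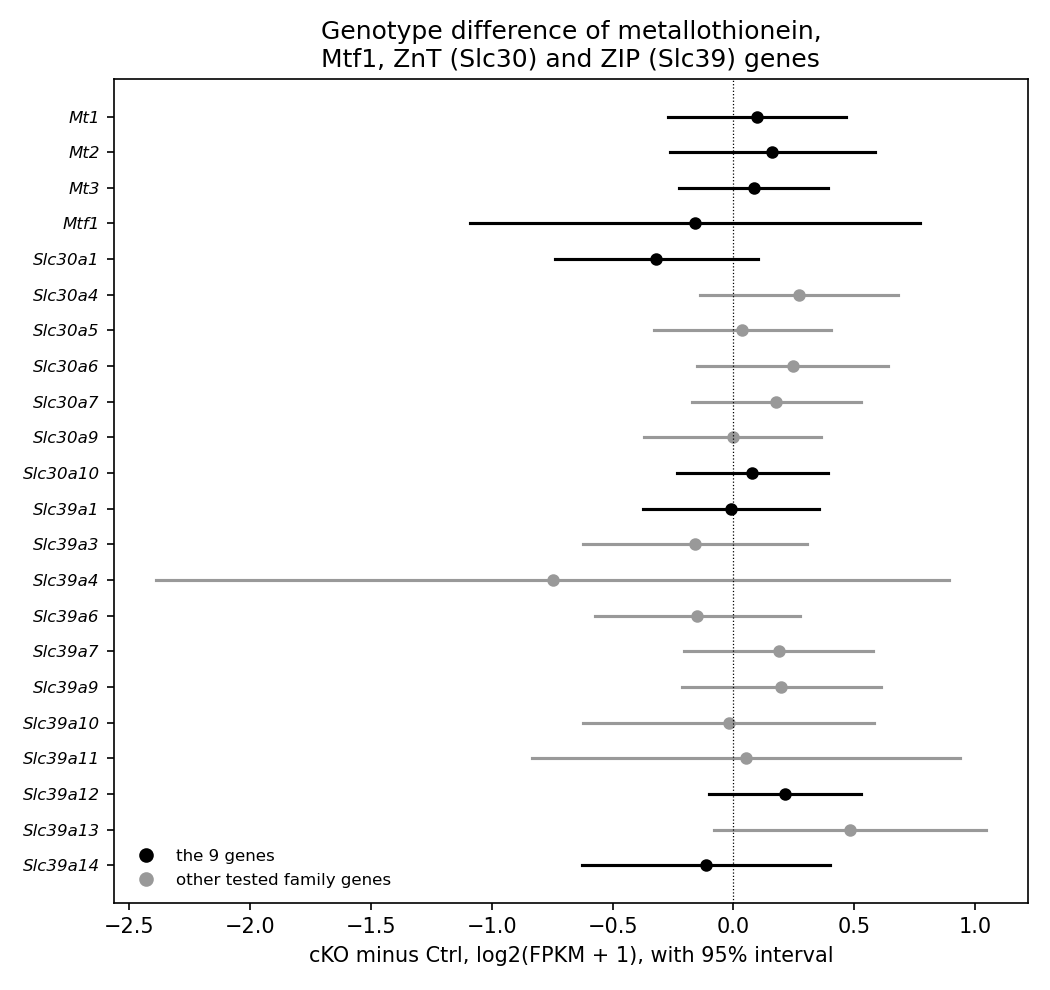
Log2 difference of cKO from Ctrl (horizontal axis, log2(FPKM + 1) scale, 3 units per genotype) for the 9 genes in black and the 13 other tested zinc family genes in grey, with points at the estimate and bars for the 95% interval. All intervals of the 9 genes cross 0, and that of Mtf1 is the widest among them.

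Because the highest Tnfrsf1b counts were in A4, labelled cKO, each difference was also computed without that unit. It was 0.09 for Mt1, 0.20 for Mt2, 0.06 for Mt3, -0.23 for Mtf1 and -0.31 for Slc30a1. It was 0.13 for Slc30a10, 0.06 for Slc39a1, 0.24 for Slc39a12 and -0.04 for Slc39a14. None of the 9 genes passed the threshold in that fit, and Slc39a1 alone changed sign.

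The units differed more in spread than in mean for several genes. The coefficient of variation of Mt1 was 18.8% over the Ctrl units and 2.59% over the cKO units. It was 21.9% and 6.86% for Mt2 and 13.9% and 3.32% for Mt3. For Mtf1 it was 66.2% and 20.4%. It ran the other way for Slc30a1, with 8.35% and 22.0%, and for Slc39a14, with 8.79% and 28.5%. In all, 6 of the 9 genes had the wider spread in Ctrl. With 3 units a group, the difference in spread was not tested.

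**Figure D4:**
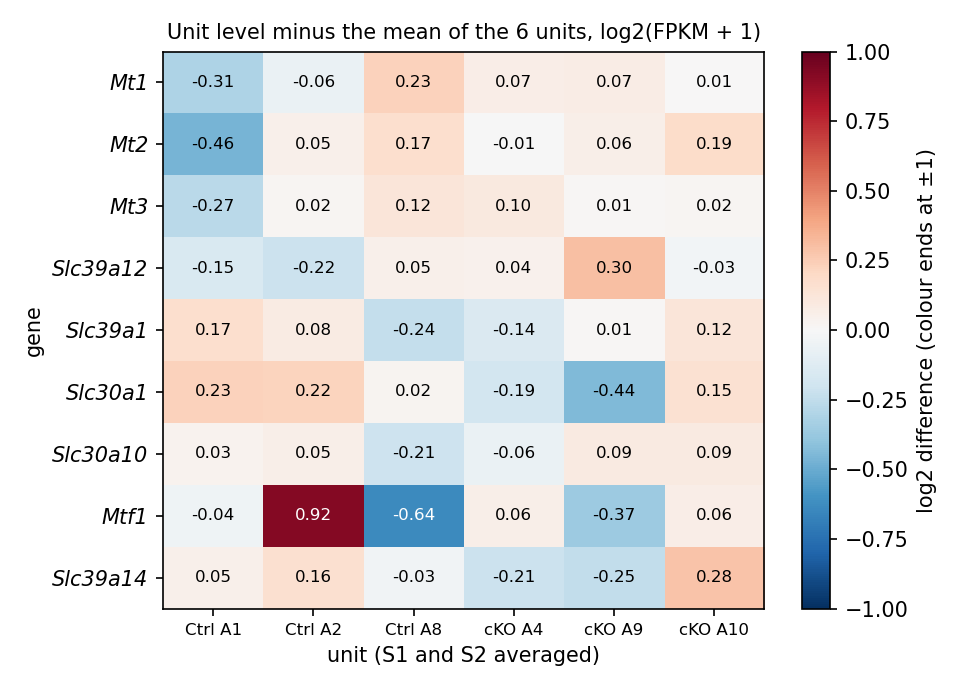
Deviation of each unit from the gene's mean over 6 units (colour and printed value, log2(FPKM + 1)), for 9 genes (vertical axis) and 6 units (horizontal axis). A1 is negative for all 3 metallothioneins, at -0.31, -0.46 and -0.27, and A2 stands out for Mtf1 at 0.92.

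Pearson's r was above 0 for each pair of the 3 metallothioneins over the 6 units, without an adjusted p under 0.05. These relations weakened without the outermost units. Pearson's r of Mt1 with Mt3 was 0.93 (exact permutation p = 0.0167, adjusted p = 0.22 over 36 pairs) and Spearman's rho was 0.60 (exact permutation p = 0.242). Pearson's r was 0.39 without the 2 units farthest from the median of Mt1, A1 and A8. For Mt1 with Mt2, r was 0.86 (exact permutation p = 0.0458, adjusted p = 0.275), rho was 0.54 (p = 0.297, exact), and r was -0.27 without those units. For Mt2 with Mt3, r was 0.90 (exact permutation p = 0.0944, adjusted p = 0.394), rho was 0.31 (p = 0.564, exact), and r was 0.40 without A1 and A10, the units farthest from the median of Mt2. Leaving out the outermost units narrows the range and can lower r by itself. The lower values therefore do not show what these relations rest on. The strongest relation of the 36 was inverse, between the exporter Slc30a1 and the importer Slc39a12, with r of -0.94 (exact permutation p = 0.00556, adjusted p = 0.2) and rho of -0.89 (p = 0.0333, exact), and r was -0.92 without 2 units. None of the 36 pairs had an adjusted p under 0.05, and 17 of the 36 coefficients were above 0. Both genotypes are pooled in these values, since 3 units per genotype are too few for a value within each.

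Genes outside the family with the most similar profile over the 6 units were also listed. By Pearson's r of log2(FPKM + 1), Mt1 was closest to Rfx7 (0.99), Bmpr1a (0.98), Atxn7l1 (0.98) and Sox6 (0.98). Mt3 was closest to Grin3a (0.996), Kalrn (0.995), Adra2a (0.99) and Abi1 (0.99). Slc39a12 was closest to S1pr1 (0.99), Apip (0.99), Fut8 (0.99) and Ccdc18 (0.99), and Slc39a14 to P2rx6 (0.99), Mphosph6 (0.99), Notch3 (0.98) and Asic2 (0.98). Each was picked from all tested protein-coding genes by rank on 6 points, so these values describe the units only.

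The order of the levels is stated per length and depends on the length used. Over the 6 units, mean FPKM was 674 for Mt1, 272 for Mt2, 256 for Mt3 and 148 for Slc39a12. It was 19.1 for Slc39a1, 17.4 for Slc30a1, 16.8 for Slc30a10, 4.59 for Mtf1 and 3.28 for Slc39a14. Neighbours in this order did not overlap between Mt1 and Mt2, Mt3 and Slc39a12, Slc39a12 and Slc39a1, or Slc30a10 and Mtf1. The ranges of units overlapped for Mt2 with Mt3, Slc39a1 with Slc30a1, Slc30a1 with Slc30a10 and Mtf1 with Slc39a14.

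The table divides by a gene length that counts every annotated exon, which for Mt1 is 1246 bases, the whole span of the gene including its introns. The transcript that GENCODE M21 numbers first is 549 bases for Mt1, 511 for Mt2 and 536 for Mt3 once spliced. Divided by those lengths, Mt1 reached 1531 per spliced kilobase, Mt3 509 and Mt2 313, so that Mt3 rather than Mt2 came next to Mt1. Mt2 exceeded Mt3 by 1.06-fold in FPKM, but held 0.587 times its reads. Slc39a14 changed most among the transporters, since its table length of 10550 bases stands against 2098 spliced. Its level per spliced kilobase was 16.5, near that of Slc30a1 at 17.4 and Slc39a1 at 19.1, and above that of Mtf1 at 5.35. This division credits all reads of a gene to its first-numbered transcript, including any that fell outside the exons of that transcript. The share of such reads is not known here, so the values per spliced kilobase are not measured transcript levels. A length is the same in every library, so the genotype comparison changes with it only through the pseudocount.

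**Figure D5:**
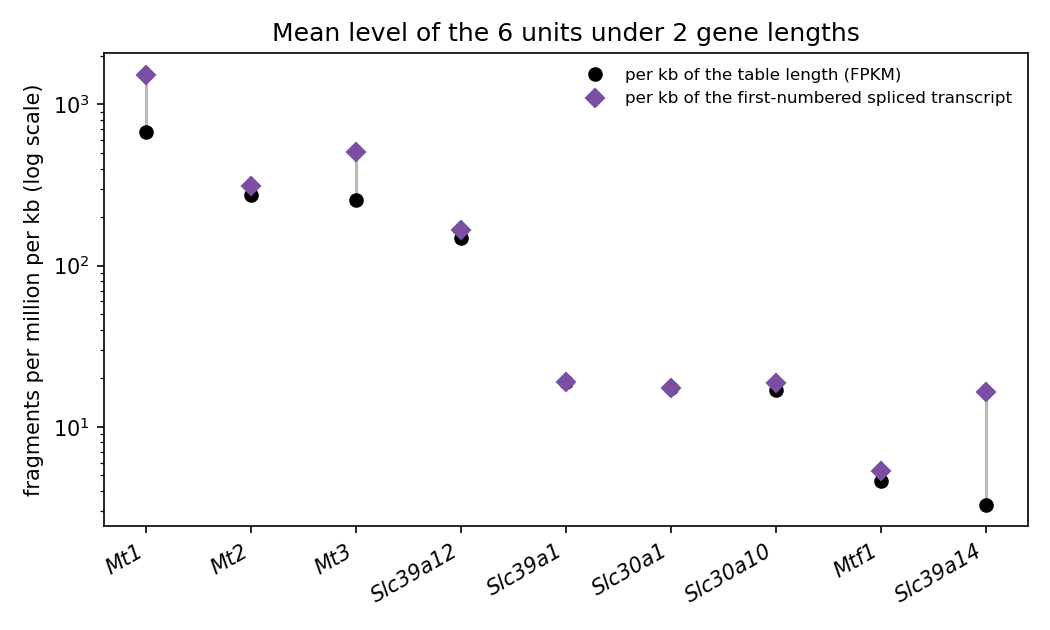
Mean level over 6 units (axis on a log scale) of the 9 genes when the same reads are divided by the deposited gene length (FPKM) or by the spliced transcript length. Mt2 and Mt3 change places, and Slc39a14 moves from 3.28 to 16.5.

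Some member values may include reads of other genes. Mt2 is overlapped on the opposite strand by the long noncoding RNA Gm45774 over 749 bases of its 905-base span. Gm45774 was listed at 32.5 to 55.3 FPKM, and the counting is not stated to use strand. Its table length is 2665 bases against 588 for Mt2, so the same FPKM stands for more reads in Gm45774. Without strand, reads of Mt2 and Gm45774 cannot be told apart within the overlap. The order of Mt2 and Mt3 given above, by FPKM or by reads, shares this limit. Slc30a1, Slc30a10 and Mtf1 are overlapped by genes of at most 6.18 FPKM. The reads behind a library's value ranged from 12562 to 31253 for Mt1, from 2188 to 5428 for Mt2 and from 4306 to 10342 for Mt3. How reads shared by similar or overlapping genes were divided is not given in the sources used here, so the metallothionein values are uncertain to that extent.

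The S1 and S2 libraries of an A number gave similar levels for most members, with wider gaps in single cases. In A2 of Ctrl, Slc39a14 was 4.04 FPKM in S1 and 3.44 in S2, and Slc39a1 was 22.1 and 18.4. In a fit blocked on the A number, 243 of all tested genes (1.39%) had a limma adjusted p under 0.05 between S2 and S1, 1.13% higher and 0.257% lower in S2, and 1 of the 9 members did. At an unadjusted p under 0.05 there were 2 of 9 members, Mt1 and Mt2, against 11.0% of all genes. The 1 called was Mt2, which fell in S2 by 0.08 on the log2 scale (SE 0.01, limma adjusted p = 0.0471), and was lower in 6 of 6 A numbers. The call was lost with a pseudocount of 0.1 (limma adjusted p = 0.0525) and when any A number but A1 was left out. Mt1 had a log2 difference of 0.03 (limma adjusted p = 0.250) with S2 above S1 in 6 of 6 pairs, but it was -0.0009 under upper quartile scaling.

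The rest of the zinc family was compared in the same fit. Of 20 further metallothionein, ZnT and ZIP genes, 13 were abundant enough to test, and 0 had a limma adjusted p or an unadjusted p under 0.05. The median log2 difference of the 13 was 0.05, with 8 above 0. Mt4, a form of squamous epithelia, and Slc30a8, the zinc transporter of insulin granules, were listed at 0 in all 12 libraries. Slc39a13, whose product ZIP13 sits in the membranes of the secretory pathway, averaged 3.60 ± 1.34 FPKM for Ctrl and 5.26 ± 0.289 for cKO (SD, n = 3 each), a log2 difference of 0.48 (SE 0.24, limma adjusted p = 0.721), which was 0.29 without A2. Its units ran from 2.44 to 5.07 FPKM in Ctrl and from 4.97 to 5.55 in cKO and overlapped.

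Among the other ZnT genes, Slc30a6 and Slc30a7 serve the Golgi, and the cKO units of both lay above all Ctrl units. Slc30a6 averaged 4.61 ± 0.744 and 5.61 ± 0.198 FPKM (log2 difference 0.25, limma adjusted p = 0.833, 0.15 without A2). Slc30a7 averaged 5.04 ± 0.282 and 5.83 ± 0.391 FPKM (log2 difference 0.18, limma adjusted p = 0.869). Such a separation upward was seen in 5.76% of all tested genes. Slc30a4, a vesicular transporter, averaged 9.0 ± 0.593 and 11.2 ± 2.35 FPKM (log2 difference 0.27, limma adjusted p = 0.813), and the difference was 0.12 without A9. Slc39a7 and Slc39a9, importers of the endoplasmic reticulum and Golgi, had log2 differences of 0.19 and 0.20 (limma adjusted p = 0.877 for each). That of Slc39a7 was 0.08 without A9 and 0.09 without A8, and that of Slc39a9 was 0.10 without A10 and 0.33 without A4. Slc39a4, chosen after its values were seen, was 4.45 FPKM in A1 and 5.18 in A2 but was listed at 0 in both libraries of A8, and was 0.858 to 0.980 in the cKO units.

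Genes of neighbouring metal pathways and of stimuli that act on metallothionein genes were read from further lists. Among 5 genes linked to MTF1 in addition to the members, all had lower means in cKO, as had 8918 of the 17540 tested genes. Of the 5, 2 were lower at an unadjusted p under 0.05 (4.71% of all genes tested) and 0 had an adjusted p under 0.05. Ndrg1 averaged 25.2 ± 10.2 FPKM for Ctrl and 6.89 ± 3.27 for cKO (SD, n = 3 each), a log2 difference of -1.72 (SE 0.41, limma adjusted p = 0.347). Its cKO units lay below all Ctrl units, as in 7.22% of all tested genes. Csrp1, a LIM domain protein, had a log2 difference of -0.33 (limma adjusted p = 0.642), and Selenow, a selenoprotein, -0.17 (limma adjusted p = 0.889). The value of Selenow was -0.06 without A2, -0.06 without A10 and -0.29 without A8. Ndrg1 is also abundant in oligodendrocytes, whose 10 markers had a median log2 difference of -1.75, and their part in its value was not tested.

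In the copper list (12 genes), 3 had higher and 9 lower means in cKO, where 8918 of all 17540 tested genes were lower. Of the 12, 0 had an unadjusted p under 0.05, and the median log2 difference was -0.11. The 3 genes with the smallest p, named next, were the 3 with higher means. The log2 differences of Sco2, Ccs and Atp7a were 0.32, 0.33 and 0.26 (limma adjusted p = 0.795, 0.814 and 0.892). Sco2 was 0.18 without A9, Ccs was 0.16 without A2, and Atp7a ran from 0.10 without A1 to 0.51 without A8. In the iron list (12 genes), 6 had higher and 6 lower means in cKO, with a median log2 difference of 0.007. Both ferritin chains were lower in cKO at an unadjusted p under 0.05 (4.71% of all genes tested). Fth1 averaged 278 ± 62.9 and 176 ± 30.3 FPKM (log2 difference -0.65, limma adjusted p = 0.506), and Ftl1 34.3 ± 0.621 and 27.2 ± 1.33 FPKM (log2 difference -0.32, limma adjusted p = 0.501). Steap3, an iron reductase, had a log2 difference of 0.30 (limma adjusted p = 0.770). Ferritin is abundant in oligodendrocytes as well, and the part of their lower markers was not tested.

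Glucocorticoids and cytokines induce Mt1 and Mt2, and genes known to respond to them were examined beside the metallothioneins. Of 9 tested glucocorticoid response genes, 8 had lower means in cKO, 2 at an unadjusted p under 0.05 (4.71% of all genes tested), with a median log2 difference of -0.46. The mean log2 level of this list was 3.35 in Ctrl and 2.90 in cKO, beside 6.52 and 4.73 for the oligodendrocyte markers, whose part was not tested. Sgk1, a kinase, was 10.4, 40.6 and 8.12 FPKM in A1, A2 and A8, and 3.58, 2.96 and 7.82 FPKM in A4, A9 and A10 (log2 difference -1.59, limma adjusted p = 0.607), and the difference was -0.91 without A2. Errfi1 and the clock gene Per1 had log2 differences of -0.60 and -0.52 (limma adjusted p = 0.629 and 0.681), and that of Per1 was -0.34 without A9. Of 6 tested genes of the STAT3 and acute phase list, 0 had an unadjusted p under 0.05, with a median of -0.06. The log2 differences of Cebpd, Osmr and Socs3 were -0.89, 0.38 and -0.93 (limma adjusted p = 0.719, 0.864 and 0.896). With single units left out, Socs3 ran from -0.23 (without A1) to -2.05 (without A8), Osmr from 0.10 (without A8) to 0.57 (without A1), and Cebpd from -0.49 (without A9) to -1.13 (without A10).

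Immediate-early genes, which are also induced by tissue dissociation, had lower means in cKO for 13 of 13 genes, 1 at an unadjusted p under 0.05 (4.71% of all genes tested), with a median log2 difference of -0.82. Egr2, Ier3 and Fosb had log2 differences of -1.51, -1.05 and -0.999 (limma adjusted p = 0.523, 0.748 and 0.793). Single Ctrl units moved these values, to -0.55 without A1 and -1.71 without A8 for Ier3. Fosb was -0.62 without A1, -0.66 without A2 and -1.72 without A8. By unit, the mean log2 level of this list was 5.47 in A1, 5.60 in A2 and 3.62 in A8 of Ctrl, and 4.46 in A4, 3.43 in A9 and 4.30 in A10 of cKO. A8, the Ctrl unit with the highest level of each of the 3 metallothioneins, thus had the lowest level of this list in Ctrl. The mean log2 level of 5 ependymal markers ran alongside it, at 5.48, 5.26 and 3.66 in A1, A2 and A8 and 4.57, 3.39 and 4.88 in A4, A9 and A10. The part of dissociation and of ependymal cells in the member values was not tested.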

How the data were processed

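RNA of sorted (FACS, ACSA-2) hippocampal astrocytes was made into libraries with the SMART-Seq V4 kit and read as pairs of 125 bases, per the labels' protocols. Per the submitters' processing notes, the tools named were FastQC, STAR, featureCounts and DESeq2, with the builds mm10 and GRCm38. The authors deposited FPKM values for 56941 genes in 12 libraries. Of 51948 genes matched to GENCODE M21 (GRCm38), 2.77% had the same start and end, so gene coordinates are given as deposited and their build is not given in the sources used here.

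Depth was recovered from the steps of low values, and 83.8% to 87.8% of values above 0 per library came out within 0.05 of a whole read. Reads carry no molecular identifiers, so depth covers counting error only. Rows sharing a symbol (147 symbols) were summed. The S1 and S2 values were averaged as log2(FPKM + 1), a scale that understates changes of low genes. The genotype comparison used limma 3.58.1 under R 4.3.3 (eBayes with a variance trend, two-sided, Benjamini-Hochberg over 17540 genes, threshold 0.05). S2 was compared with S1 within A numbers, which entered as a block. The fits were tested on simulated data, in which genotype changes larger than any member's difference could go uncalled, so a count of 0 does not show that levels were equal. Promoters came from RefSeq (GRCm38.p6).

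Named genes were the 9 members and Tnfrsf1b. Beside these, the rule named the 3 genes of each list with the smallest genotype p and the 4 most similar genes to Mt1, Mt3, Slc39a12 and Slc39a14. The members and lists were chosen with earlier results of these data known. Alternatives changed the pseudocount, the filter, the scaling, the eBayes setting, the averaging, the weights and the units.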

Additional observations from a re-analysis of the deposited data

Results flagged for a closer look

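Slc30a3 encodes ZnT3, which loads zinc into the synaptic vesicles of neurons, and its mean was below the filter for testing. It had 34 reads in the S1 library and 26 in the S2 library of A4, labelled cKO, and 4 reads in the S2 library of A10. It was listed at 0 in all 6 Ctrl libraries, in both A9 libraries and in the S1 library of A10. The 34 reads are above the level in the control samples, in a gene that no reported comparison tested. The summed level of 8 neuronal markers was 3.77 to 7.98 FPKM in the cKO units and 8.23 to 9.67 in the Ctrl units.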

How the results depend on the processing

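The count of members called between genotypes was 0 of 9 under every alternative fitted. Slc30a1, Slc39a12 and Slc39a14 kept their direction in all alternatives fitted. Slc39a1 changed sign to 0.0860 under upper quartile scaling, 0.0029 under median centring and 0.0026 with S1 alone, and to 0.0727 without A1, 0.0293 without A2 and 0.0593 without A4. When each A number was left out, the differences ran from -0.0330 (without A1) to 0.2373 for Mt1, from -0.0306 (without A1) to 0.2866 for Mt2, from -0.0309 (without A1) to 0.1671 for Mt3, and from -0.5194 to 0.2603 (without A2) for Mtf1. They ran from -0.1335 to 0.0727 for Slc39a1 and from -0.0051 (without A8) to 0.1300 for Slc30a10. Mtf1 and Slc39a14 fell below the filter of 5 FPKM and have no value there.

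The count of all genes called was 0, and 0 to 1 when each A number was left out, with the 1 gene found without A1. It was 112 with the 12 libraries and the A number as a random effect, and 80 with the replicate block added, where the pathway lists gave 1 gene (Ndrg1, limma adjusted p = 0.0381 and 0.0494) in place of 0, and 0 members passed. The replicate numbers stand for S1 and S2 and give no pairing of Ctrl with cKO samples, and S2 minus S1 correlated at 0.13 to 0.19 between A numbers. The cause of these higher counts was not tested.

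Between S2 and S1, alternatives chosen after seeing the data gave 0 members at a pseudocount of 0.1 and 0 to 1 when each A number was left out (limma adjusted p of Mt2 0.00748 to 0.158). Mt1 was -0.0009 under upper quartile scaling.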
